A study of Pimephales promelas with 26 samples.

Results

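The rows described here are 2 transcripts of the fathead minnow (Pimephales promelas), XM_039654938.1 of the small GTPase gene rab28 and XM_039671468.1 of the synaptic scaffold gene frmpd4, among 57299 transcripts in the deposited count table. Both were chosen by their estimated counts in these libraries, rab28 for its lower level at some concentrations and frmpd4 for its absence from some libraries, so their levels are given as a description without a test. The tests below concern the other transcripts of both genes, the other genes of the same pathways and the known partners and relatives. Each library came from a pool of 20 whole larvae taken 7 days after fertilization, which had been kept in dishes with fluoxetine, a serotonin reuptake inhibitor, from 6 hours after fertilization, with the water partly renewed each day. There were 5 libraries from larvae in water alone, 3 at a measured 0.19 µg/L, 5 at 0.74 µg/L, 5 at 3.38 µg/L, 5 at 10.2 µg/L and 3 at 47.2 µg/L. The labels give no strain, and they list the same age, pool size and start time for all groups. The question posed by the series is at which concentration the transcriptome of the larva first moves away from that of water controls.

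Rab28 is a prenylated member of the Rab branch of small GTPases, which switch between a GTP-bound and a GDP-bound state to direct membrane traffic. In the worm it travels along cilia with the BBSome and the intraflagellar transport trains, in the mouse and zebrafish it acts in the shedding of cone photoreceptor outer segments, and in people its loss causes a cone-rod dystrophy. Frmpd4, also called Preso, carries WW, PDZ and FERM domains and, in rodent neurons, ties the postsynaptic scaffold PSD-95 and the Homer proteins to the metabotropic glutamate receptor mGluR5 and affects the density of dendritic spines.

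The libraries held between 13515478 and 27614956 estimated counts. Transcripts of rods and cones, of neurons, of glia and of muscle were all present in the whole larvae: in water the rod opsin rho stood at 805 ± 97.5 TPM (a level scaled to transcript length and library, SD, n = 5), the neuronal RNA-binding gene elavl3 at 111 ± 9.53 TPM and the muscle actin acta1b at 3874 ± 711 TPM. All 62 rows of the photoreceptor list and 69 of the 70 rows of the neuron list reached 3 counts in at least 1 library, the exception being 1 row of elavl4. In such a mixture, fewer cells of a type and less RNA per cell cannot be told apart. The RNA fragments sequenced were 248 to 258 bp long at 0.19 µg/L and 250 to 263 bp at 0.74 µg/L, against 235 to 240 bp in water, 222 to 242 bp at 3.38 µg/L, 226 to 247 bp at 10.2 µg/L and 228 to 247 bp at 47.2 µg/L. Per the labels' protocol a replicate was 1 dish of embryos, and whether dishes came from separate spawns is not given, so p-values measure the spread between dishes.

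The rab28 row XM_039654938.1, 2562 bases long, was lower than in water at 0.19, 0.74 and 47.2 µg/L and close to the water level at 3.38 and 10.2 µg/L. Its level was 21.4, 24.6, 22.4, 21.8 and 25.1 CPM (counts scaled to library size) in water replicates A to E. It was 17.3, 14.95 and 15.9 CPM in replicates A to C at 0.19 µg/L and 16.0, 14.9, 13.2, 15.8 and 16.5 CPM in replicates A to E at 0.74 µg/L. All 8 of these exposed libraries lay below every water library. At 3.38 µg/L the row stood at 24.7, 20.6, 25.1, 25.0 and 24.9 CPM and at 10.2 µg/L at 23.5, 25.8, 21.2, 20.2 and 22.7 CPM. Both groups overlapped the water libraries, and replicate B at 3.38 µg/L stood apart from the other libraries of its group. At 47.2 µg/L replicates A to C had 18.4, 18.3 and 16.7 CPM, again all below every water library.

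A row with every library below every water library is not rare in groups this small. Over the 43837 transcripts tested, 3.41% showed it at 0.19 µg/L, 1.16% at 0.74 µg/L and 3.13% at 47.2 µg/L, and since the row was chosen for its level nothing is read from that count. The group means were 23.1 ± 1.67 CPM in water (SD, n = 5), 16.0 ± 1.17 CPM at 0.19 µg/L (n = 3), 15.3 ± 1.304 CPM at 0.74 µg/L (n = 5), 24.1 ± 1.93 CPM at 3.38 µg/L (n = 5), 22.7 ± 2.14 CPM at 10.2 µg/L (n = 5) and 17.8 ± 0.99 CPM at 47.2 µg/L (n = 3). From highest to lowest the order was therefore 3.38 µg/L, water, 10.2, 47.2, 0.19 and 0.74 µg/L. The first 3 groups overlapped one another, 47.2 overlapped 0.19 µg/L and 0.19 overlapped 0.74 µg/L, while no library of the last 3 groups reached the lowest library of the first 3. As log2 differences from water, in a linear model over the 26 libraries, these levels were -0.53 ± 0.09 (SE) at 0.19 µg/L, -0.60 ± 0.07 at 0.74 µg/L, 0.06 ± 0.07 at 3.38 µg/L, -0.03 ± 0.07 at 10.2 µg/L and -0.37 ± 0.09 at 47.2 µg/L.

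No change was called in the other transcripts of rab28. The rest of the gene, that is XM_039654939.1 (2661 bases) and XM_039654940.1 (894 bases) counted together, had a level of 6.20 ± 1.72 CPM in water, 5.22 ± 1.83 CPM at 0.19 µg/L, 6.34 ± 0.79 CPM at 0.74 µg/L and 4.80 ± 0.88 CPM at 47.2 µg/L. Its log2 fold changes against water were -0.25 ± 0.32 (SE, edgeR's quasi-likelihood test, adjusted p = 0.958), 0.03 ± 0.28 (adjusted p = 1) and -0.37 ± 0.32 (adjusted p = 0.855) at those concentrations. Intervals this wide hold the log2 differences of the rab28 row at 0.19 and 47.2 µg/L. At 0.74 µg/L, the interval of 2 SE runs from -0.52 to 0.58, beside the -0.60 of the rab28 row.

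The 2 remaining rows had means on opposite sides of water. The short row XM_039654940.1 was at 1.71, 1.2996, 0.68, 1.37 and 2.83 CPM in water replicates A to E, at 3.21, 4.21 and 4.03 CPM at 0.19 µg/L, at 3.37, 2.39, 4.30, 4.36 and 2.65 CPM at 0.74 µg/L and at 2.25, 3.10 and 3.995 CPM at 47.2 µg/L. All 3 libraries at 0.19 µg/L lay above every water library, which held for 3.81% of all transcripts tested, as did 3 of 5 at 0.74 µg/L and 2 of 3 at 47.2 µg/L. The log2 fold changes were 1.27 ± 0.41 (edgeR, adjusted p = 0.365), 1.104 ± 0.37 (adjusted p = 0.398) and 0.97 ± 0.41 (adjusted p = 0.458), and none passed the test over all transcripts. The longest row, XM_039654939.1, was at 6.86, 4.98, 4.24, 5.66 and 1.40 CPM in water and at 0, 2.58 and 1.65 CPM at 0.19 µg/L, with a log2 fold change of -1.71 ± 0.84 (edgeR, adjusted p = 0.578). It overlapped water at each concentration. Among these 2 rows and the other frmpd4 row, edgeR called none of 3 at any concentration, against 0.0502% of all transcripts at 0.19 µg/L, 0.089% at 0.74 µg/L and 0.103% at 47.2 µg/L; at an unadjusted p below 0.05 there was 1 of 3 at each of 0.19, 0.74 and 47.2 µg/L and none at 3.38 and 10.2 µg/L. Over all transcripts tested, 8.75%, 8.10%, 4.17%, 5.34% and 9.35% had an unadjusted p below 0.05 from the lowest to the highest concentration, and DESeq2 called 1.27%, 0.926%, 0.162%, 0.237% and 1.70%. DESeq2 called none of the 3 rows, with no adjusted p for 2 of the 3 at 0.74 µg/L.

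Per length, the rab28 rows had other shares of the gene in the low groups. XM_039654938.1 made up 70.3 ± 5.37% of the gene's summed TPM in water (SD, n = 5), 70.6 ± 6.29% at 3.38 µg/L and 69.4 ± 8.28% at 10.2 µg/L. Its share was 52.9 ± 7.39% at 0.19 µg/L (n = 3), 51.4 ± 5.10% at 0.74 µg/L (n = 5) and 59.2 ± 4.43% at 47.2 µg/L (n = 3). As a share of the gene's estimated counts it held 71.4 to 85.6% in water and 68.8 to 84.3% at 0.19 µg/L. At 0.74 µg/L that share was 65.8 to 75.3% and at 47.2 µg/L 76.0 to 81.4%, so in counts each of these groups overlapped water. The gene's summed level per length was 20.2 ± 1.75 TPM in water, 18.2 ± 0.59 TPM at 0.19 µg/L, 18.3 ± 1.21 TPM at 0.74 µg/L and 18.6 ± 0.69 TPM at 47.2 µg/L, and these ranges all overlapped that of water, 17.4 to 21.7 TPM. The summed reads, by contrast, were 29.3 ± 1.31 CPM in water and 21.3 ± 0.68, 21.6 ± 1.15 and 22.6 ± 1.59 CPM at 0.19, 0.74 and 47.2 µg/L. Each library of these 3 exposed groups lay below every water library, which held for 3.41%, 1.16% and 3.13% of single transcripts tested. Since most of this sum is the row chosen for its low level, nothing is read from that separation. The row whose share was larger there than in water was the shortest of the gene, so 1 read of it stands for more molecules than 1 read of the other rows. The counting divides reads that match several transcripts of a gene between them, and the estimated counts of the 3 rows added up to a whole number, within 0.01, in 23 of 26 libraries.

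**Figure D1:**
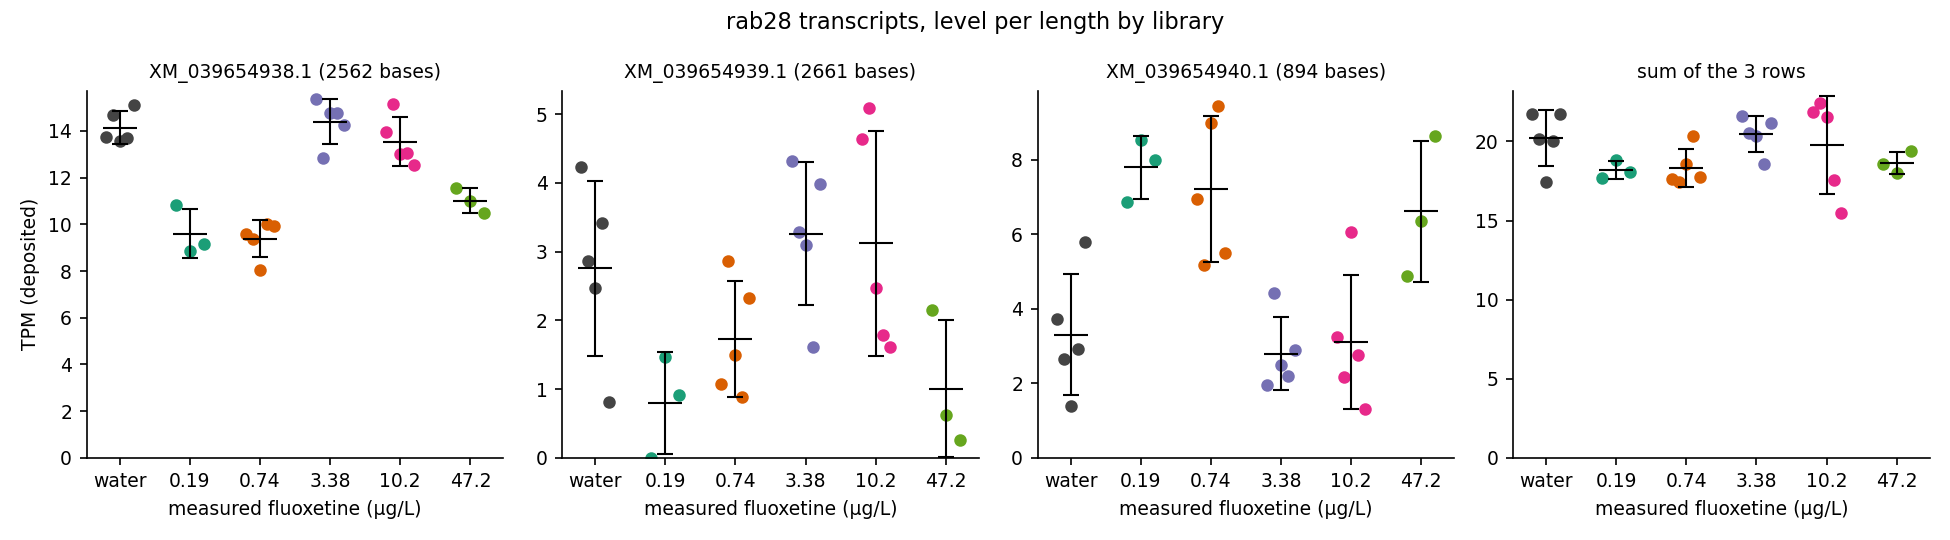
Level of each rab28 transcript and their sum in TPM (y axis) in each library (points) by measured fluoxetine in µg/L (x axis), with the mean (bar) and SD (whiskers) of each group. XM_039654938.1 is lower at 0.19, 0.74 and 47.2 µg/L, XM_039654940.1 is higher there on average, and the sums of those groups lie within or close to the water range of 17.4 to 21.7 TPM.

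The frmpd4 row XM_039671468.1, 5922 bases long, was present in 22 libraries and missing from 4. In water replicates A to E it stood at 17.9, 13.4, 12.6, 11.1 and 19.8 CPM. At 0.19 µg/L the highest estimated count of the 3 libraries was 0.000316, so no read was assigned to the row in any of them, while at 47.2 µg/L replicate A had an estimated count of 0.312 and replicates B and C had 8.47 and 10.8 CPM. The lowest of the other libraries had 101 estimated counts, so that no library lay between absence and that level. Against a floor of 3 counts per library, a mean of 0.184 CPM at 0.19 µg/L, the level assigned to the row was at least 81.5-fold lower there than the water mean of 14.98 ± 3.69 CPM (SD, n = 5). This bound covers counting error only. It does not cover how the counting divided reads among rows that share them, so it does not bound the level of the transcript itself.

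The remaining groups had intermediate or water-like levels. At 0.74 µg/L replicates A to E were at 7.88, 11.6, 5.70, 5.46 and 11.9 CPM, a mean of 8.51 ± 3.11 CPM. Replicates A, C and D lay below every water library and the other 2 within the water range. At 3.38 µg/L the libraries stood at 15.1, 12.7, 18.3, 16.6 and 18.1 CPM and at 10.2 µg/L at 12.2, 24.2, 17.1, 15.3 and 15.4 CPM, overlapping water in both groups. All 3 libraries at 47.2 µg/L lay below every water library, which held for 3.13% of transcripts at that concentration. Nothing is read from that count, since the row was chosen by its own counts. From the highest mean to the lowest, the order was 10.2, 3.38 µg/L, water, 0.74, 47.2 and 0.19 µg/L. The first 3 overlapped, 0.74 overlapped both water and 47.2 µg/L, and replicate A at 47.2 µg/L lay, like all libraries at 0.19 µg/L, under 3 counts. With libraries under 3 counts set to that floor, the log2 difference from water was -0.86 ± 0.72 (SE) at 0.74 µg/L and -2.57 ± 0.83 at 47.2 µg/L, the latter -0.61 without replicate A.

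Among the 57299 rows of the table, XM_039671468.1 was the 1 row with under 3 counts in every library at 0.19 µg/L and at least 100 in every water library, a description since absence was part of how the row was chosen. Absence from 1 library or more was seen in other abundant rows too. Of 20553 rows with a median of at least 100 counts, 1421 were under 3 counts in 1 library or more and 235 in 4 or more, as here. Of those paired with a gene, 881 of 957 and 134 of 145 belong to genes with several rows, beside 6845 of 15963 among all rows with that median.

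The second frmpd4 row, XM_039671466.1 (6168 bases), was present in all 26 libraries. It stood at 8.35, 13.4, 9.96, 8.63 and 5.42 CPM in water and at 14.96, 14.92 and 7.49 CPM at 0.19 µg/L. Replicates A and B at 0.19 µg/L lay above every water library and replicate C within the water range. There it had a log2 fold change of 0.45 ± 0.43 (edgeR, SE, adjusted p = 0.894), and at 0.74, 3.38, 10.2 and 47.2 µg/L it was -0.38 ± 0.37, -0.20 ± 0.37, -0.32 ± 0.37 and -0.24 ± 0.43, with adjusted p from 0.984 to 1. None of these passed the test. Both frmpd4 rows together came to 24.1 ± 2.93 CPM in water, 12.5 ± 4.30 CPM at 0.19 µg/L, 15.5 ± 4.82 CPM at 0.74 µg/L and 14.2 ± 3.64 CPM at 47.2 µg/L. All libraries at 0.19 and 47.2 µg/L and 4 of 5 at 0.74 µg/L lay below every water library in this sum. All libraries did so in 3.41% of single transcripts tested at 0.19 µg/L and 3.13% at 47.2 µg/L. Since this sum holds the row chosen for its absence, nothing is read from that separation.

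A further row shares its reads with the frmpd4 rows. XM_039671467.1 (6401 bases) is not paired with a gene in the reference table used here, its accession number falls between those of the 2 frmpd4 rows, and it is not counted as frmpd4. The estimated counts of the 2 frmpd4 rows alone added up to a whole number, within 0.01, in 0 of 26 libraries, and those of the 2 rows with XM_039671467.1 in all 26. A whole sum is what the counting gives when reads are divided among those 3 rows and no others. XM_039671467.1 was at 19.6, 17.7, 17.2, 18.7 and 21.0 CPM in water and at 26.2, 23.6 and 28.6 CPM at 0.19 µg/L. There all 3 libraries lay above every water library, which held for 3.81% of all transcripts tested. At 0.74 µg/L its mean was 24.4 ± 3.82 CPM with 4 of 5 libraries above every water library, and at 47.2 µg/L it was 26.4, 25.6 and 14.2 CPM. At 10.2 µg/L 3 of 5 libraries also lay above every water library and 1 below, and at 3.38 µg/L 1 lay above and 3 below. Its log2 fold changes were 0.47 ± 0.18 (edgeR, SE, adjusted p = 0.485) at 0.19 µg/L and 0.37 ± 0.16 (adjusted p = 0.549) at 0.74 µg/L. At 47.2 µg/L it was 0.23 ± 0.19 (adjusted p = 0.816), and none of these passed the test.

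Over the 3 rows that share reads, the difference from water was smaller. Their sum was 45.9, 44.5, 39.7, 38.5 and 46.2 CPM in water and 41.1, 38.6 and 36.1 CPM at 0.19 µg/L, where 2 of 3 libraries lay within the water range. It was 38.0, 49.0, 33.0, 39.3 and 40.3 CPM at 0.74 µg/L and 36.4, 41.3 and 31.0 CPM at 47.2 µg/L, overlapping water in both. The log2 difference of this sum from water was -0.15 ± 0.12 (SE) at 0.19 µg/L, -0.11 ± 0.10 at 0.74 µg/L and -0.25 ± 0.12 at 47.2 µg/L, against -1.01 ± 0.27, -0.70 ± 0.24 and -0.80 ± 0.27 for the 2 frmpd4 rows. This sum was formed after the levels had been seen and carries no test. Replicate A at 47.2 µg/L, the exposed library without XM_039671468.1 in that group, had the group's highest level of both other rows, 9.97 CPM of XM_039671466.1 and 26.4 CPM of XM_039671467.1.

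**Figure D2:**
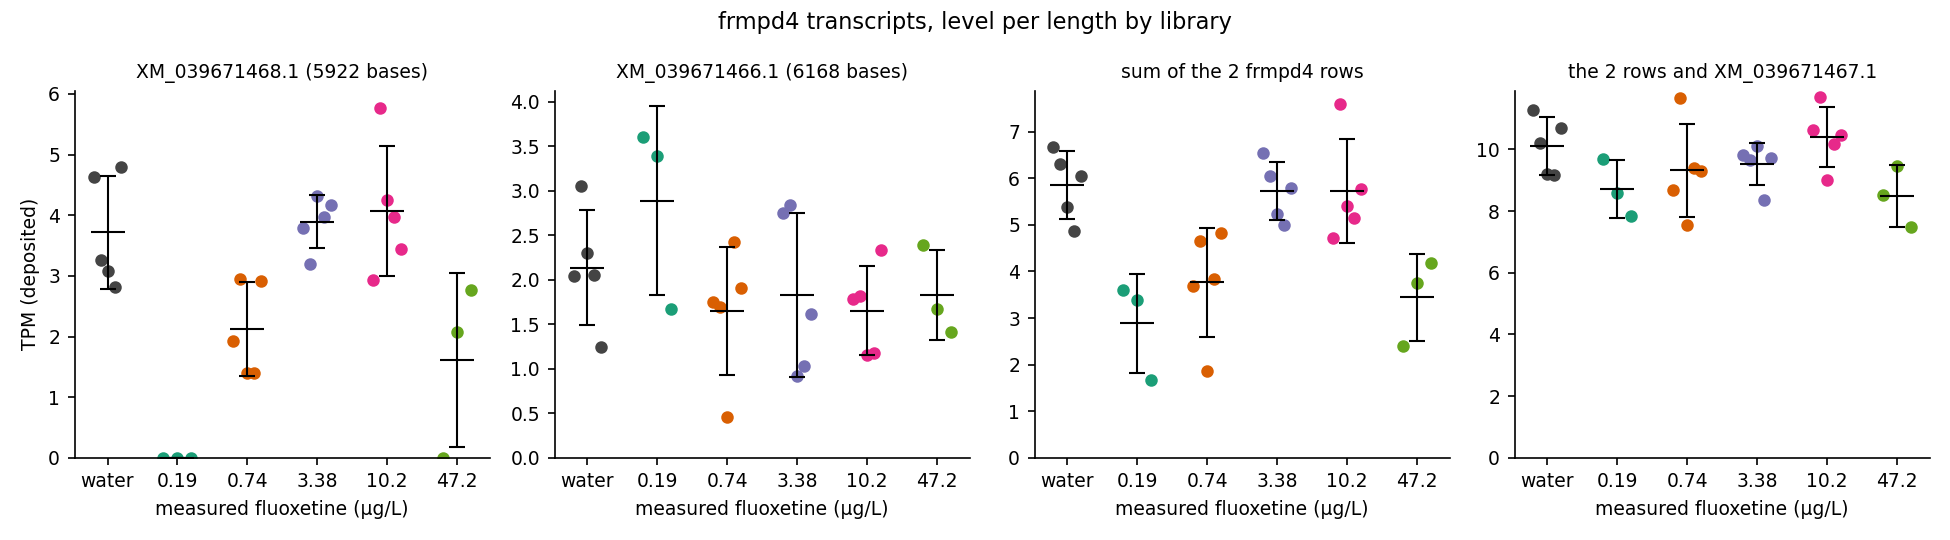
Level in TPM (y axis) of XM_039671468.1, of XM_039671466.1, of both frmpd4 rows together and of both with XM_039671467.1 in each library (points) by measured fluoxetine in µg/L (x axis), with the mean (bar) and SD (whiskers) of each group. XM_039671468.1 is at or near 0 in the 3 libraries at 0.19 µg/L and in 1 at 47.2 µg/L, and the groups overlap in the rightmost panel.

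**Figure D3:**
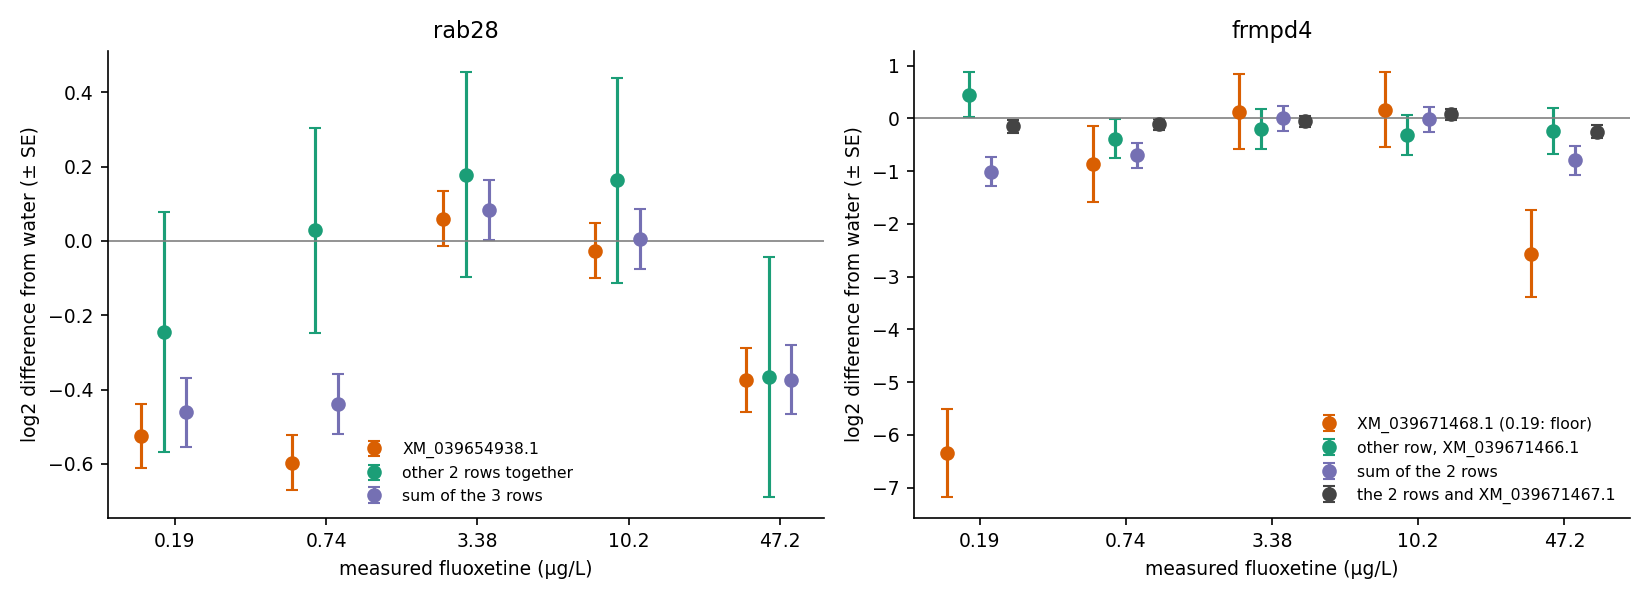
Log2 difference from water (y axis) with its SE (whiskers) at each measured concentration in µg/L (x axis) for the described row, the rest of its gene and the sums, rab28 on the left and frmpd4 on the right. Libraries under 3 counts are set to that floor, so the frmpd4 point of -6.34 at 0.19 µg/L is a bound on assigned reads. The point of -2.57 at 47.2 µg/L holds 1 library at the floor. The summed frmpd4 rows with XM_039671467.1 stay between -0.25 and 0.08.

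Fragment length differed between the groups. The 0.19 and 0.74 µg/L libraries had fragments of 248 to 263 bp, longer than any water library, and those at 47.2 µg/L had fragments of 228 to 247 bp, against 235 to 240 bp in water. The rab28 level was 16.0, 15.3 and 17.8 CPM on average in these 3 groups. With fragment length as a covariate the log2 difference of the rab28 row was -0.45 ± 0.10 (SE) at 0.19 µg/L, -0.50 ± 0.11 at 0.74 µg/L and -0.37 ± 0.09 at 47.2 µg/L. That of the frmpd4 row turned from -0.86 to 0.27 ± 1.02 at 0.74 µg/L and was -5.48 ± 0.98 at 0.19 µg/L, still with the floor in place. At 0.19 and 0.74 µg/L fragment length and exposure cannot be told apart, since those libraries do not overlap water in fragment length. The covariate rests on the spread of fragment length within groups. Beyond this covariate, the part of fragment length in these levels was not tested.

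**Figure D4:**
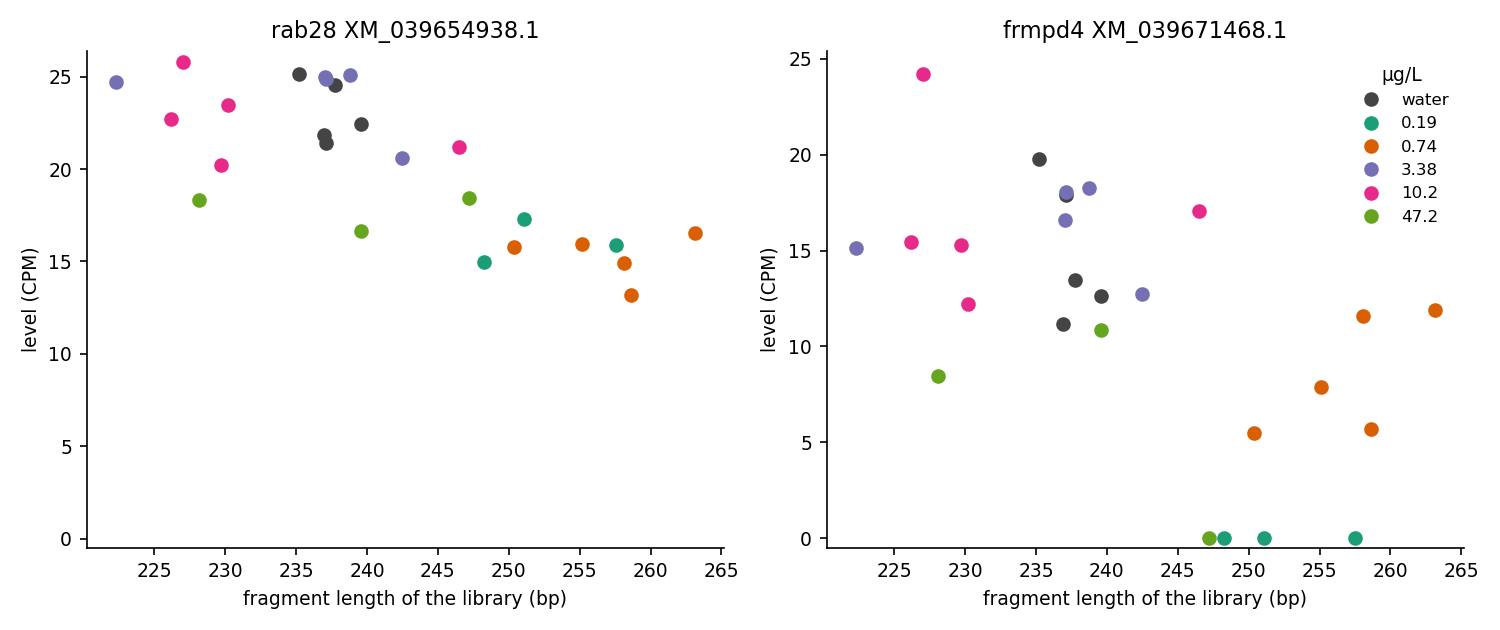
Level in CPM (y axis) of the rab28 row (left) and of the frmpd4 row (right) against the fragment length of the library in bp (x axis), 1 point per library, coloured by measured fluoxetine in µg/L. The 47.2 µg/L libraries have 16.7 to 18.4 CPM of rab28 at 228 to 247 bp, and the 4 libraries without the frmpd4 row lie between 247 and 258 bp. The 5 libraries at 0.74 µg/L, at 250 to 263 bp, have 5.46 to 11.9 CPM of the frmpd4 row.

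Summed levels of retinal and neuronal markers were on average lower in the same 3 groups and higher in the other 2 exposed groups. The 62 photoreceptor rows added up to 3781 to 4668 TPM in water, 3135 to 3803 TPM at 0.19 µg/L, 3391 to 4185 TPM at 0.74 µg/L, 3990 to 5056 TPM at 3.38 µg/L, 4005 to 6108 TPM at 10.2 µg/L and 3116 to 3823 TPM at 47.2 µg/L. The 70 neuron rows added up to 2006 to 2237 TPM in water, 1860 to 2048 TPM at 0.19 µg/L, 1976 to 2110 TPM at 0.74 µg/L, 2140 to 2484 TPM at 3.38 µg/L, 2150 to 2613 TPM at 10.2 µg/L and 1916 to 2174 TPM at 47.2 µg/L. Each of these ranges overlapped that of water, and edgeR called none of the rows of either list. At an unadjusted p below 0.05 there were 17.7%, 14.5%, 0%, 19.4% and 24.2% of the photoreceptor rows from the lowest to the highest concentration and 1.47%, 7.35%, 2.94%, 8.82% and 4.41% of the neuron rows, beside 8.75%, 8.10%, 4.17%, 5.34% and 9.35% of all transcripts. DESeq2 called 6 photoreceptor rows at 47.2 µg/L, or 9.68% beside 1.70% of all transcripts, and 1 neuron row at 0.74 µg/L, or 1.47% beside 0.926%. At 0.74 µg/L it gave no adjusted p for 15 of 62 photoreceptor and 10 of 68 neuron rows tested. The part of these markers in the levels of rab28 and frmpd4 was not tested. The median log2 fold change of the photoreceptor rows was -0.26 at 0.19 µg/L, -0.14 at 0.74 µg/L, 0.09 at 3.38 µg/L, 0.23 at 10.2 µg/L and -0.22 at 47.2 µg/L, against medians over all transcripts between -0.01 and 0.01. Beside these medians, the log2 difference of the rab28 row was -0.53, -0.60, 0.06, -0.03 and -0.37. Mean sums of the glial markers went the same way, at 1702 TPM in water and 1494, 1562, 1801, 1815 and 1651 TPM from the lowest to the highest concentration. Glial sums ranged from 1581 to 1871 TPM in water, 1391 to 1565 at 0.19, 1462 to 1639 at 0.74 and 1369 to 1897 TPM at 47.2 µg/L. The glial median at 47.2 µg/L, 1688 TPM, was near the 1683 TPM of water. Mean pigment epithelium sums were 330 TPM in water (288 to 388), then 297, 329, 341, 365 and 301 TPM. At 0.74 µg/L they ranged from 284 to 364 TPM, with a mean near that of water. Motile cilium sums were 131, then 129, 129, 124, 123 and 129 TPM. Muscle sums were 43644, then 44765, 42420, 46540, 45481 and 42061 TPM.

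Genes of the primary cilium, which Rab28 travels along, and other Rab genes gave 1 call by edgeR. Of 72 rows of intraflagellar transport and BBSome genes tested, edgeR called none at any concentration, with medians from -0.07 to 0.06, and at an unadjusted p below 0.05 there were 9, 7, 1, 3 and 6 rows from the lowest to the highest concentration, or 12.5%, 9.72%, 1.39%, 4.17% and 8.33% beside 8.75%, 8.10%, 4.17%, 5.34% and 9.35% of all transcripts. The edgeR calls over all transcripts were 0.0502%, 0.089% and 0.103% at 0.19, 0.74 and 47.2 µg/L and 0 at the others. DESeq2 called 1 of the 72 rows at 0.19, 1 at 0.74 and 1 at 47.2 µg/L, each 1.39%, beside 1.27%, 0.926% and 1.70% of all transcripts. Of 49 rows of the transition zone and ciliary gate and of 58 rows of motile cilia, edgeR called none. At an unadjusted p below 0.05 were 6.12%, 4.08%, 2.04%, 4.08% and 8.16% of the former, beside the shares of all transcripts given above. Of the latter it was 5.17%, 1.72%, 5.17%, 1.72% and 5.17%. DESeq2 called 2 of the former at 47.2 µg/L, or 4.08% beside 1.70% of all transcripts, and 0 of the latter. At 0.74 µg/L it gave no adjusted p for 27 of the former and 43 of the latter, so those could not be called. Of the 72 transport rows, 24 had none there either. Of 76 rows for prenylation and the Rab cycle edgeR called none and DESeq2 1, at 47.2 µg/L, or 1.32% beside 1.70% of all transcripts. At an unadjusted p below 0.05 were 6.58%, 2.63%, 7.89%, 5.26% and 11.8% of them from the lowest to the highest concentration. DESeq2 gave no adjusted p for 20 of these 76 rows at 0.74 µg/L.

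Among 111 other Rab rows, edgeR called 1, which was higher. At an unadjusted p below 0.05 were 9.01%, 7.21%, 4.50%, 4.50% and 13.5% of them, from the lowest to the highest concentration. Of all transcripts it was 8.75%, 8.10%, 4.17%, 5.34% and 9.35%. DESeq2 called 0.901%, 2.70%, 0%, 0% and 1.80% of the Rab rows, beside 1.27%, 0.926%, 0.162%, 0.237% and 1.70% of all transcripts. At 0.74 µg/L it gave no adjusted p for 34 of the 111 Rab rows. The only row of rab1aa, a Rab of transport between endoplasmic reticulum and Golgi, was at 29.7 ± 2.84 CPM in water (SD, n = 5, 27.6 to 34.3). At 47.2 µg/L this row was at 45.7 ± 11.4 CPM (n = 3, 38.5 to 58.9). The log2 fold change came to 0.62 ± 0.11 (edgeR, SE, adjusted p = 0.0281), against 0.073% of all transcripts called higher, and this call was lost without any 1 of water replicates B to E or replicate A at 47.2 µg/L, with an adjusted p of up to 0.239. The median of the Rab rows there was 0.11, with 41 of 111 below 0, against a median of 0 over all transcripts.

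Among synaptic genes, edgeR called 1 postsynaptic row higher and 1 presynaptic row lower, both at 0.74 µg/L. A row of anks1b, a scaffold of the postsynaptic density, was at 5.16 ± 0.98 CPM in water (3.95 to 6.21) and 9.41 ± 1.60 CPM at 0.74 µg/L (7.64 to 11.8), a log2 fold change of 0.86 ± 0.17 (SE, edgeR, adjusted p = 0.0434). That call held in 6 of 26 fits without 1 library, those without replicate C at 0.19, B at 3.38, D or E at 10.2 or A or C at 47.2 µg/L, and its adjusted p reached 0.146 in the others. A row of synpra, a synaptic vesicle membrane protein, was at 30.9 ± 3.72 CPM in water (27.0 to 34.6) and 16.6 ± 4.10 CPM at 0.74 µg/L (11.7 to 23.1), a log2 fold change of -0.90 ± 0.14 (edgeR, adjusted p = 0.00873) that held in all 26 such fits. At 0.19 and 47.2 µg/L the anks1b row was at 7.16 and 8.71 CPM and the synpra row at 21.1 and 17.6 CPM. Neither was called there, with edgeR adjusted p from 0.0571 to 0.492. All 3 rows of synpra together came to 50.6 ± 4.43 CPM in water and a mean of 41.6 CPM at 0.74 µg/L. All 7 rows of anks1b came to 9.63 ± 1.26 CPM in water and a mean of 14.7 CPM at 0.74 µg/L. The calls at 0.74 µg/L were 1 of 372 postsynaptic and 1 of 203 presynaptic rows tested, or 0.269% and 0.493%. Over all transcripts 0.0547% were called higher and 0.0342% lower at 0.74 µg/L. At an unadjusted p below 0.05 were 16.3%, 12.8%, 3.45%, 9.36% and 9.36% of the presynaptic rows, from the lowest to the highest concentration. Of the postsynaptic rows it was 9.14%, 6.18%, 5.38%, 6.99% and 8.87%, beside 8.75%, 8.10%, 4.17%, 5.34% and 9.35% of all transcripts. DESeq2 called 3.45%, 2.46%, 0.493%, 0.985% and 3.45% of the presynaptic rows and 0.269%, 0.269%, 0%, 1.08% and 1.88% of the postsynaptic rows. At 0.74 µg/L it gave no adjusted p for 74 of the 203 presynaptic and 160 of the 372 postsynaptic rows. Over all transcripts it called 1.27%, 0.926%, 0.162%, 0.237% and 1.70%. The medians of the postsynaptic rows were -0.10, -0.01, 0.05, 0.11 and -0.08 from the lowest to the highest concentration, and those of the presynaptic rows -0.19, -0.09, 0.09, 0.11 and -0.17. Of 103 rows of other genes with a FERM domain, the membrane-binding fold that Frmpd4 carries, edgeR called none. At an unadjusted p below 0.05 were 8.74%, 6.80%, 9.71%, 8.74% and 13.6% of them, beside the shares of all transcripts given above. DESeq2 called 1 row, or 0.971%, at each of 0.19, 0.74, 3.38 and 10.2 µg/L and 2, or 1.94%, at 47.2 µg/L. At 0.74 µg/L it gave no adjusted p for 41 of the 103. The medians of the FERM rows were 0.12, 0.13, -0.09, -0.08 and 0.09.

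A myelin gene of the glial list gave the remaining edgeR calls, again in 1 of several rows. At an unadjusted p below 0.05 were 18.9%, 21.6%, 8.11%, 18.9% and 18.9% of the 37 glial rows, from the lowest to the highest concentration. Of all transcripts it was 8.75%, 8.10%, 4.17%, 5.34% and 9.35%. DESeq2 called 2 glial rows, or 5.41%, at each of 0.19, 0.74 and 47.2 µg/L, beside 1.27%, 0.926% and 1.70% of all transcripts. At 0.74 µg/L it gave no adjusted p for 5 of the 37. A row of mbpa, myelin basic protein, was at 19.2 ± 3.94 CPM in water and fell to 2.45 ± 1.67 CPM at 0.74 µg/L, a log2 fold change of -2.93 ± 0.48 (SE, edgeR, adjusted p = 0.0124), and to 2.38 ± 1.71 CPM at 47.2 µg/L, -3.03 ± 0.60 (adjusted p = 0.0469), where 0.0297% of all transcripts were called lower. In both groups every library lay below every water library, which held for 1.16% of all transcripts tested at 0.74 µg/L and 3.13% at 47.2 µg/L. The mbpa row was also at 3.13 ± 1.725 CPM at 0.19 µg/L, -2.59 ± 0.58 (edgeR, adjusted p = 0.129). At 3.38 and 10.2 µg/L it was at 24.1 and 36.6 CPM. All 3 mbpa rows together came to 108 ± 11.4 CPM in water and means of 99.7, 110 and 89.8 CPM at 0.19, 0.74 and 47.2 µg/L. The call at 0.74 µg/L held in 24 of 26 fits without 1 library; replicates A and B of that group were the exceptions. The call at 47.2 µg/L held in 7, those without replicate B at 0.19, B, C or D at 0.74, B at 3.38, D at 10.2 or C at 47.2 µg/L, with an adjusted p of up to 0.242 in the others. None of the calls at 0.74 µg/L stayed with fragment length as a covariate, where adjusted p was 0.747 for synpra, 0.95 for mbpa and 1 for anks1b, and that of mbpa at 47.2 µg/L was lost too, at 0.0572. Without the count filter the calls of mbpa at 47.2 µg/L and of anks1b were lost, with adjusted p of 0.0573 and 0.0541. With water and 1 concentration alone all 5 calls among the lists were lost, with adjusted p from 0.0522 to 0.413. Over all 1227 rows of the 13 lists, edgeR called 0, 3, 0, 0 and 2 from the lowest to the highest concentration. At 0.19, 0.74 and 47.2 µg/L it called 0.0502%, 0.089% and 0.103% of all transcripts. At an unadjusted p below 0.05 were 124, 97, 60, 96 and 129 list rows. These were 10.1%, 7.91%, 4.89%, 7.82% and 10.5%, beside 8.75%, 8.10%, 4.17%, 5.34% and 9.35% of all transcripts. DESeq2 called 13, 13, 2, 7 and 30 list rows, or 1.06%, 1.06%, 0.163%, 0.570% and 2.44%. It gave no adjusted p for 12, 456, 3, 3 and 34 of the 1227 rows, so those could not be called. Of all transcripts it called 1.27%, 0.926%, 0.162%, 0.237% and 1.70%.

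None of the partners and relatives of Rab28 was called. The 10 rows for these genes were those of pde6d, whose protein carries prenylated cargo to the cilium, of the farnesyltransferase subunits fnta and fntb, of the BBSome subunits bbs1 and bbs4, of the transport subunit ift88 and of the related GTPases rab8a, rab11a, rab3aa and rab3ab. At 0.19 µg/L 7 of 10 were below 0 and their median log2 fold change was -0.10, at 0.74 µg/L 5 were below 0 with a median of -0.02, and at 47.2 µg/L 6 with a median of -0.05. The row of pde6d was at 11.3 ± 1.65 CPM in water and its log2 fold changes were -0.17 ± 0.15, -0.17 ± 0.13 and -0.09 ± 0.15 (SE) at those 3 concentrations, with edgeR adjusted p from 0.88 to 0.981. The row with the largest difference at 47.2 µg/L was that of rab8a, a Rab of cilium assembly, at 0.47 ± 0.20 (edgeR, adjusted p = 0.467). At an unadjusted p below 0.05 there was 1 row at each of 0.19, 10.2 and 47.2 µg/L, or 10% beside 8.75%, 5.34% and 9.35% of all transcripts. DESeq2 called none of these 10 rows. Over all transcripts edgeR called 0.0502%, 0.089% and 0.103% at 0.19, 0.74 and 47.2 µg/L, so the lack of calls among 10 rows is near that share.

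None of the partners and relatives of Frmpd4 was called either. Their 11 rows belong to the PSD-95 genes dlg4a and dlg4b, the related scaffolds dlg1a and dlg1b, homer1 and homer1b, the receptor gene grm5b, the spindle and polarity gene gpsm2, the Rac exchange factors arhgef7a and arhgef7b, and frmpd1a. No row used here was paired with shank3, frmpd2 or frmpd3. Their median log2 fold change was -0.003 at 0.19 µg/L, -0.005 at 0.74 µg/L and -0.11 at 47.2 µg/L. The dlg4b row, at 41.7 ± 5.59 CPM in water, had log2 fold changes of -0.003 ± 0.14, -0.17 ± 0.12 and -0.14 ± 0.14 (SE) at 0.19, 0.74 and 47.2 µg/L. The homer1b row had 0.05 ± 0.09, -0.005 ± 0.07 and -0.07 ± 0.09. For these 2 rows the SE was between 0.07 and 0.14 at those concentrations, whereas for dlg1a and grm5b it was between 0.69 and 0.82. No partner row had an unadjusted p below 0.05 at any concentration, beside 8.75%, 8.10%, 4.17%, 5.34% and 9.35% of all transcripts from the lowest to the highest. DESeq2 called none of the 11, with no adjusted p for 1 row at 0.74 µg/L. Over all transcripts edgeR called 0.0502%, 0.089% and 0.103% at 0.19, 0.74 and 47.2 µg/L, so the lack of calls among 11 rows is near that share.

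**Figure D5:**
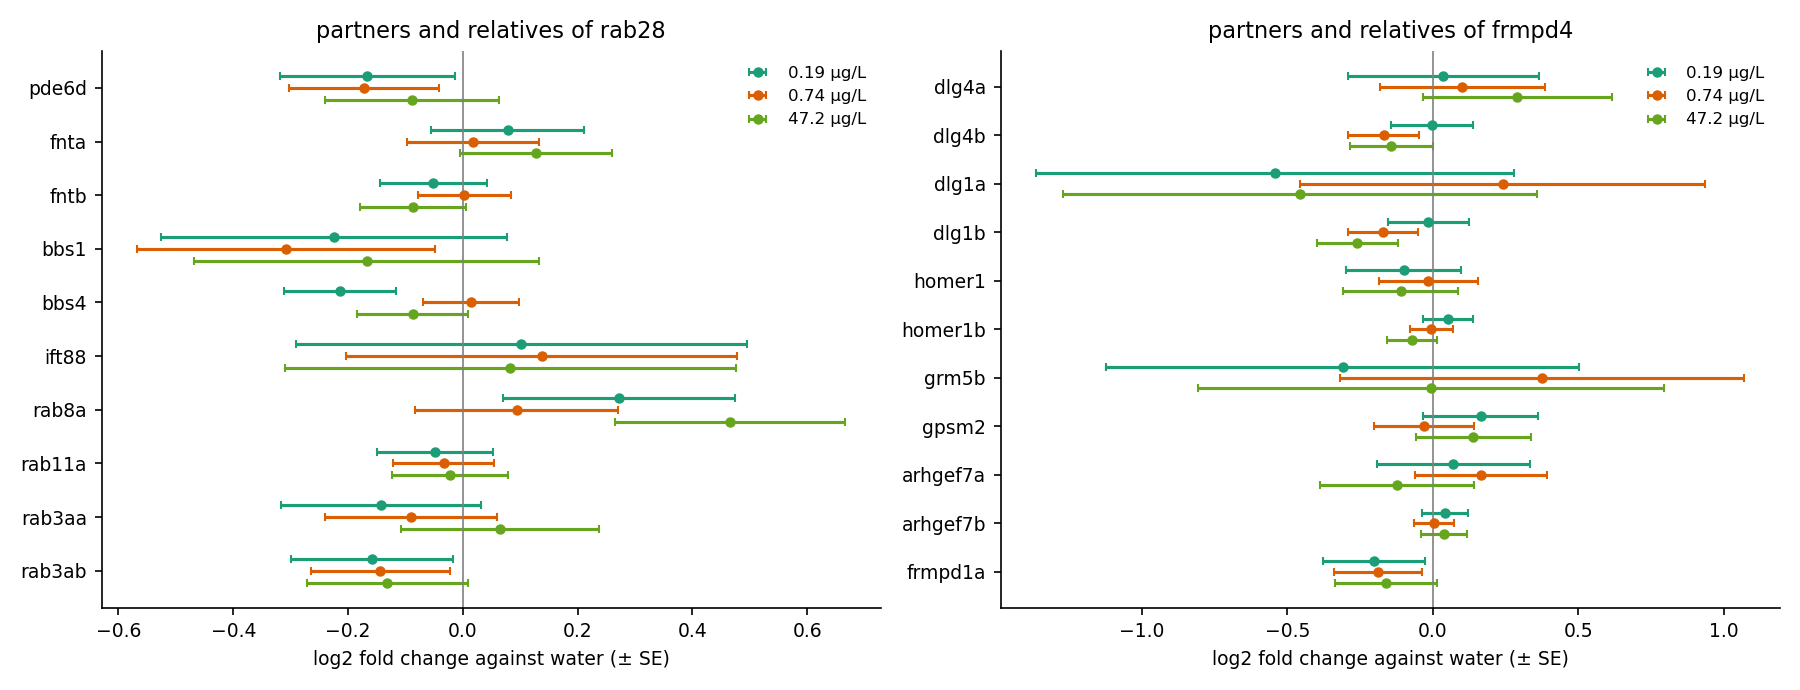
Log2 fold change against water (x axis) with its SE (whiskers) at 0.19, 0.74 and 47.2 µg/L (colours) for the highest row of each partner or relative of rab28 (left) and frmpd4 (right). No row passed the test, and the values lie between -0.54 for dlg1a at 0.19 µg/L and 0.47 for rab8a at 47.2 µg/L.

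Among 21439 rows of other named genes with a mean of at least 1 CPM, those whose log2 level followed that of the rab28 row most closely over the 26 libraries were rows of manea, a Golgi glycan-trimming enzyme, mbpa, msantd1, the proton pump subunit atp6v1g1 and the ATP synthase subunit atp5mc3b. The libraries fall into 11 with a low rab28 level, at 0.19, 0.74 and 47.2 µg/L, and 15 with a higher one, so Pearson's r is given within each set, as a description of libraries that share their exposure group, depth and fragment length. For manea it was 0.66 over the 11 and 0.69 over the 15, and for atp6v1g1 0.76 and 0.72. For mbpa it was 0.29 and 0.43, for msantd1 0.17 and 0.45 and for atp5mc3b -0.12 and 0.53, so their likeness lay mainly in the step between the sets. The rows running most against rab28 were those of tmem59, with r of -0.54 over the 11 and -0.63 over the 15, of the transcriptional repressor cica, with -0.42 and -0.67, and of the neuronal calcium sensor hpca, with -0.24 and -0.39. The hpca row had log2 fold changes of 1.07, 1.13 and 1.07 at 0.19, 0.74 and 47.2 µg/L, and the atp5mc3b row -0.62, -0.64 and -0.64, beside -0.53, -0.60 and -0.37 for rab28.

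For the frmpd4 row the same ranking named rows of the junction protein gene plekha7a, the amyloid precursor relative aplp1, the potassium channel gene kcnk3a, macrod2 and the vesicle-release factor cadpsb, and as the lowest tmx3b, fstl1a and usp25. The ranking leaned on the 4 libraries without the row, less so for fstl1a, whose r was -0.80 over all 26. Over the other 22 libraries Pearson's r was 0.29 for plekha7a, 0.15 for aplp1, 0.17 for kcnk3a, 0.48 for macrod2 and 0.21 for cadpsb, and -0.46, -0.67 and -0.35 for tmx3b, fstl1a and usp25.

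The authors' deposited table gives the rab28 row log2 fold changes of -0.53 ± 0.09 (SE) at 0.19 µg/L, -0.60 ± 0.08 at 0.74 µg/L, 0.06 ± 0.08 at 3.38 µg/L, -0.02 ± 0.08 at 10.2 µg/L and -0.37 ± 0.09 at 47.2 µg/L. The authors' deposited table gives the frmpd4 row -10.4 ± 1.33 at 0.19 µg/L, a fitted value with no read behind it, and -1.23 ± 0.63 at 47.2 µg/L. In the authors' deposited table XM_039671467.1 has 0.47 ± 0.19 at 0.19 µg/L and the short rab28 row XM_039654940.1 has no value.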

How the data were processed

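Per the labels' protocols, poly(A) RNA was made into directional libraries. Trimmomatic 0.38, kallisto and DESeq2 were used, per the submitters' processing notes; the index, the build and the versions of the latter tools are not stated there. Deposited by the authors were the estimated counts and TPM from kallisto per RefSeq transcript and, per concentration, a comparison holding their mean normalized signal, log2 fold change, score, p-value and adjusted p-value, quoted here only for the rows named. Accessions without version were matched to the RefSeq gene annotation of assembly fPimPro1.hap1.1, which paired 31554 of 57299 transcripts (55.1%, 82.6% of counts).

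Estimated counts were rounded and tested per transcript with edgeR 4.0.16 and limma 3.58.1 (R 4.3.3; input through data.table, release 1.17.8): filterByExpr (43837 transcripts, 99.9% of counts), TMM scaling, a robust quasi-likelihood fit over all 26 libraries, each concentration against water, Benjamini-Hochberg adjustment over all transcripts and a threshold of 0.05. Depth was 13515478 to 27614956 counts per library, and 3 counts correspond to 0.11 to 0.226 CPM. The described rows were given no test; their log2 differences come from a linear model of log2 CPM with a floor of 3 counts per library. Named genes were both rows, the other rows of both genes, every list member called, fixed partners (their highest row) and, by Pearson's r of log2 CPM with a prior count of 2, the 5 most alike and the 3 least alike rows. The rows and gene lists were chosen with earlier results of these data known. Replicates were compared before averaging: the 46 pairs within groups all differed beyond counting noise (lowest chi-square per degree of freedom 14.9). The scripts were tested on simulated data. Alternatives were DESeq2 1.42.0 and its scaling, no count filter, 2 groups at a time, a replicate block, fragment length, leaving out libraries, deposited TPM and sums over rows. Tables and figures used Python 3.11.15 with pandas 2.3.3, numpy 2.4.6, scipy 1.17.1 and matplotlib 3.10.9. Sequences were not used here.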

Additional observations from a re-analysis of the deposited data

Results flagged for a closer look

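In the rab28 row XM_039654938.1, replicate B at 3.38 µg/L had 20.6 CPM and stood far below the other 4 libraries of its group, which had 24.7 to 25.1 CPM. It was the 1 library set apart in this way among 36 groups of row levels examined, and chance alone sets apart about 1 group in 20.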

How the results depend on the processing

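The log2 differences of the rab28 row moved by less than 1 SD between replicates under each alternative run; without 1 library they ranged from -0.59 to -0.49 at 0.19 µg/L, -0.63 to -0.55 at 0.74 µg/L and -0.40 to -0.33 at 47.2 µg/L. For the frmpd4 row, the value at 0.74 µg/L became 0.27 with fragment length as a covariate, and that at 47.2 µg/L ranged from -3.63 to -0.61 without 1 library, the latter without replicate A of that group; the cause was not tested for the first, and for the second replicate A is the library without the row. The DESeq2 values of the frmpd4 row XM_039671468.1 were left out of this comparison at all concentrations. At 0.19 µg/L the reason is that a fitted fold against libraries at 0 is no bound, which does not apply where no library was at 0. The rest of rab28 at 0.74 µg/L, at 0.03, turned to -0.44 when the described row was added to it, by construction. The sums with XM_039671467.1 were added after seeing the data. Leaving out a replicate or changing scaling, filter or block called none of the other rows of rab28 and frmpd4.

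Replicate letters were not used as pairs in the main fit, although the libraries shared some structure by letter. The deviations of same-lettered libraries from their group means correlated at -0.023 to 0.133 (median 0.054), with 8 of 57 pairs over 0.1. Those of different-lettered libraries correlated at -0.104 to 0.064 (median -0.011), with 0 of 222 pairs over 0.1. By mean correlation, 25 of 26 libraries were closest to their own letter. What libraries of a letter share was not tested. With a replicate block 1, 7, 0, 0 and 11 list members were called from the lowest to the highest concentration, against 0, 3, 0, 0 and 2, and 78, 103, 0, 0 and 182 of all transcripts, against 22, 39, 0, 0 and 45. DESeq2 called 13, 13, 2, 7 and 30 list members, or 1.06%, 1.06%, 0.163%, 0.570% and 2.44% of the 1227. At 0.74 µg/L it gave no adjusted p for 456 of them. Of all transcripts it called 555, 406, 71, 104 and 746, or 1.27%, 0.926%, 0.162%, 0.237% and 1.70%. A covariate for fragment length left 0 list members called at 0.74 and 1 at 47.2 µg/L; of all transcripts it left 3 at 0.19 and 1 at 0.74 µg/L. With water and 1 concentration alone there were 0 list members at 0.74 and at 47.2 µg/L, and 2 and 0 transcripts at 0.19 and 47.2 µg/L. Without a count filter, and likewise with replicates B at 0.19 and at 47.2 µg/L left out together, 1 list member was called at 47.2 µg/L; transcripts at 0.74 µg/L were 23 and 24, and without the filter 29 at 47.2 µg/L. Without 1 library, list members ranged from 0 to 1 at 0.19, 1 to 3 at 0.74 and 0 to 3 at 47.2 µg/L, and transcripts from 6 to 26, 12 to 43 and 8 to 62, lowest without water replicates B or C, without replicate A at 0.74 µg/L and without replicate A at 47.2 µg/L; at 3.38 and 10.2 µg/L up to 1 and 2 were called. At these depths a row at 0 limits a level to at most 0.226 CPM in the shallowest library, for counting error only.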
